A study of Homo sapiens with 12 samples.

Results

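The TAM family comprises 3 receptor tyrosine kinases, TYRO3, AXL and MERTK, and 2 secreted ligands, GAS6 and PROS1 (protein S). Their 5 genes were taken by symbol from a table of 57992 Ensembl gene IDs, in which each symbol matched a single ID. The ligands bridge the receptors to phosphatidylserine, a lipid that dying cells and their fragments display on the outer face of the plasma membrane. In macrophages and microglia the receptors drive the clearance of such cells, MERTK chiefly in resting and tolerant states and AXL under inflammation, and they dampen signalling from Toll-like and cytokine receptors. GAS6 can activate all 3 receptors, and PROS1, better known as an anticoagulant in plasma, activates TYRO3 and MERTK. Both ligands need vitamin K-dependent gamma-carboxylation to bind phosphatidylserine.

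The libraries came from induced microglia-like cells (iMGLs), which resemble the resident macrophages of the brain and were made from the human pluripotent stem cell line H1. The cultures formed 5 groups. KO LPS BMS were cells labelled as knockout for the transcription factor MEF2C that received lipopolysaccharide (LPS), the bacterial ligand of TLR4, together with BMS265246, an agent that the series title ties to inhibition of the kinase CDK2. KO LPS were knockout cells with LPS alone, WT LPS were wild-type cells with LPS, and each of these 3 groups had 2 libraries. KO and WT were knockout and wild-type cells without LPS, with 3 libraries each, and both are labelled as controls. No group held WT cells with BMS265246 or cells with BMS265246 but no LPS. Not given in the sources used here are the doses, treatment times, kind of edit and number of knockout clones. The labels call the replicates biological, without saying whether they came from separate differentiations, so p-values measure the spread between these cultures.

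Library totals ranged from 13888283 to 17639136 counts. Levels are normalised read counts on TMM-scaled library sizes (CPM), and they are divided by exon length (CPM per kilobase) wherever 1 gene is set against another. A count of 0 in a library would allow up to 3 counts, or 0.154 to 0.236 CPM, a limit that covers counting error only. Changes are log2 fold changes ± SE from edgeR's quasi-likelihood test, which was run on 16022 genes. Calls were made where p, adjusted over these genes by Benjamini-Hochberg, was under 0.05. MEF2C itself lay at 136, 129 and 135 CPM in the KO libraries and at 193, 183 and 177 CPM in the WT libraries, lower in KO by 0.47 ± 0.05 (adjusted p = 4e-07 by edgeR), so its transcripts were reduced and not lost. With LPS its KO and WT libraries were not called different (-0.13 ± 0.07, adjusted p = 0.187). Of 16 microglia and macrophage markers, 15 passed the filter on low counts, with CSF1R at 1469 to 2119 CPM and P2RY12 at only 1.69 to 16.6 CPM. CD68, a standard macrophage marker, had at most 4 counts in any library, and 1789 of its 2189 exon bases are shared with the annotated transcript AC016876.2. In bulk RNA, fewer cells of a type and less RNA per cell cannot be told apart.

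Promoter sequences are shown for 3 members, since MERTK and AXL moved in opposite directions in KO cells and GAS6 moved with AXL. PROS1, which moved with MERTK, and TYRO3, which was not called, are not shown. The RefSeq and GENCODE starts lay 128 bases apart for MERTK, 20 for AXL and 9 for GAS6. All 5 members matched the RefSeq promoter table (GRCh38.p14). Each stretch below ends before the first annotated base of the gene and reads 5′ to 3′ on the gene's own strand. Capitals mark GC boxes, the letters GGGCGG on either strand, which factors of the SP family can bind. MERTK is shown at chr2:111898357-111898478 (+), AXL at chr19:41218973-41219202 (+) and GAS6 at chr13:113864077-113864326 (-).
MERTK: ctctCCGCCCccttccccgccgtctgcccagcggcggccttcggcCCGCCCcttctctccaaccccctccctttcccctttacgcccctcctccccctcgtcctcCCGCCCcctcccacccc
AXL: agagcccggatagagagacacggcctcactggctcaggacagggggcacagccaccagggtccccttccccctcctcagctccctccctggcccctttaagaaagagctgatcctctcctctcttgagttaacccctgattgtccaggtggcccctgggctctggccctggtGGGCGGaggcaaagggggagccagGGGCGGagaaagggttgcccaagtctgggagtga
GAS6: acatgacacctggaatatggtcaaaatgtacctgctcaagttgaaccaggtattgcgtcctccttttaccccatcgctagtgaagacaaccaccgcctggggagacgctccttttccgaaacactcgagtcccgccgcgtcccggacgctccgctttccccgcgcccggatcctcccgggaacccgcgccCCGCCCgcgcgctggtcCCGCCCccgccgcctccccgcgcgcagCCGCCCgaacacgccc
MERTK held 3 GC boxes in 122 bases, all on the reverse strand, in a stretch that was 75.4% G or C. AXL held 2 in 230 bases, both on the forward strand, and GAS6 held 3 in 250 bases, all on the reverse strand. At least 1 GC box stood in 21.0%, 40.0% and 42.6% of all 35116 promoter windows trimmed to those 3 lengths, so its presence is common. Trimming kept the upstream end of windows that begin 250 bases before the RefSeq start. The windows of 122 bases, MERTK's included, thus lack the 128 bases next to that start. Other motifs were searched on both strands as well. None of the 3 stretches held TGANTCA (AP-1, in 3.01% to 6.57% of all windows of these lengths) or TATAAA (the TATA box, 5.36% to 10.7%). Nor did they hold the degenerate consensus of MEF2 (1.504% to 2.80%), NF-kB (2.43% to 5.21%), the interferon-stimulated response element (0.0370% to 0.108%) or the direct repeat bound by liver X receptors (0.0342% to 0.0740%). These are statements about the letters of these windows alone.

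MERTK, whose product binds GAS6 and PROS1 and internalises dying cells, had the widest range of group means on the log2 scale among the members above the detection limit. The gene (ENSG00000153208) spans chromosome 2, positions 111898479 to 112029561, on the plus strand of GRCh38, as annotated by GENCODE release 29. It stood at 168 and 171 CPM in KO LPS BMS, 69.3 and 62.7 CPM in KO LPS, 35.6 and 37.5 CPM in WT LPS, 163, 155 and 161 CPM in KO, and 82.6, 77.2 and 81.9 CPM in WT. The groups thus ran from KO LPS BMS through KO, WT and KO LPS down to WT LPS, with no overlap between neighbours. KO LPS BMS and KO, the neighbours at the top, were not called different, and KO LPS was not tested against WT.

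AXL, the receptor that binds GAS6 and marks inflamed macrophages, had another order. The gene (ENSG00000167601) spans chromosome 19, positions 41219203 to 41261766, on the plus strand. Its level was 104 and 106 CPM in KO LPS BMS, 77.8 and 77.2 CPM in KO LPS, 74.7 and 69.1 CPM in WT LPS, 139 CPM, 134 CPM and 139 CPM in KO, and 218, 231 and 223 CPM in WT. WT cells without LPS were the highest for AXL, and the 2 groups with LPS alone were the lowest and were not called different from each other. An antisense gene, AC011510.1, shares 67 exon bases with AXL and had at most 14 counts in any library.

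TYRO3, the third receptor (ENSG00000092445, chromosome 15, 41557675 to 41583586, plus strand), was close to the detection limit everywhere. Its counts were 12 and 8 in KO LPS BMS, 9 and 16 in KO LPS, 1 and 6 in WT LPS, 1, 12 and 7 in KO, and 6, 5 and 3 in WT. Neighbouring groups in the order of levels all overlapped, and no comparison was called. With so few counts a change could be seen only if it were large: for KO against WT the 95% interval of the log2 fold change was -0.73 to 1.99. Reads could be split with the pseudogene TYRO3P, which had at most 4 counts in any library.

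GAS6, the ligand for all 3 receptors (ENSG00000183087, chromosome 13, 113820549 to 113864067, minus strand), was a moderately expressed gene. It lay at 15.2 and 12.9 CPM in KO LPS BMS, 10.8 and 16.6 CPM in KO LPS, 20.3 and 16.2 CPM in WT LPS, 13.2, 16.3 and 14.1 CPM in KO, and 26.3, 26.1 and 28.2 CPM in WT. WT stood apart from every other group, and the remaining neighbours overlapped. GAS6-AS1, an antisense gene on the plus strand, shares 421 exon bases with GAS6, and its count was 19.3% to 51.4% of the GAS6 count. Without a stated strand setting, reads of the shared bases cannot be assigned to either gene and GAS6 levels carry that uncertainty.

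PROS1, the anticoagulant and second ligand (ENSG00000184500, chromosome 3, 93873033 to 93980003, minus strand), had the narrowest such range. Its level was 81.6 and 78.7 CPM in KO LPS BMS, 66.9 and 63.7 CPM in KO LPS, 44.7 and 45.3 CPM in WT LPS, 70.0, 68.7 and 70.9 CPM in KO, and 53.6, 51.1 and 46.9 CPM in WT. All KO groups lay above all WT groups, whatever the treatment. Its pseudogene PROS2P had at most 1 count in any library.

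**Figure D1:**
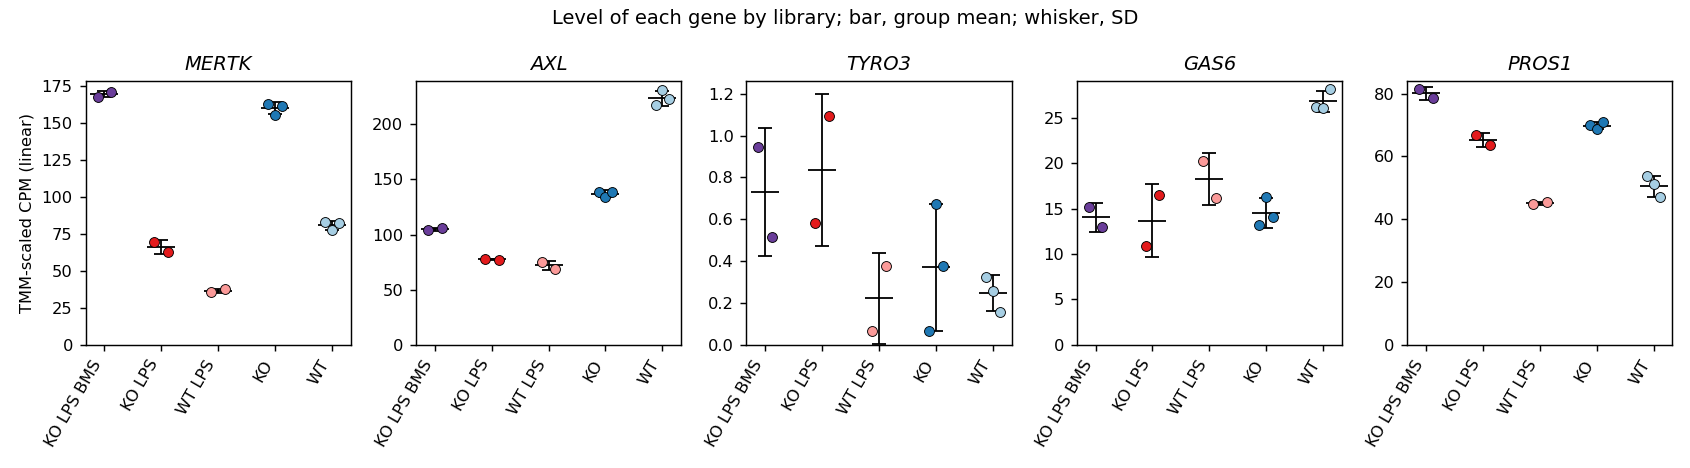
Levels of the 5 genes in TMM-scaled CPM on linear axes that start at 0, 1 point per library, with the group mean (bar) and SD (whisker) for the groups KO LPS BMS, KO LPS, WT LPS, KO and WT. MERTK is highest in KO LPS BMS and KO (155 to 171 CPM) and AXL in WT (218 to 231 CPM), while TYRO3 does not pass 1.09 CPM in any library.

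The comparison of KO with WT cells asked how cells labelled as MEF2C knockout differ from wild-type ones without a stimulus. In KO cells MERTK and PROS1 rose and AXL and GAS6 fell, so that 1 gene rose and 1 fell among the receptors and likewise among the ligands. MERTK averaged 159.7 ± 3.92 CPM in KO and 80.6 ± 2.96 CPM in WT (SD, n = 3 each), a log2 fold change of 0.99 ± 0.05 (adjusted p = 6.23e-12 by edgeR). AXL averaged 137 ± 2.92 CPM in KO and 224 ± 6.89 CPM in WT, a change of -0.71 ± 0.05 (adjusted p = 3.87e-10 by edgeR). For both receptors the 3 KO libraries lay on 1 side of the 3 WT libraries. Among the ligands, PROS1 averaged 69.9 ± 1.09 CPM in KO and 50.5 ± 3.38 CPM in WT (0.47 ± 0.06, adjusted p = 2.97e-06 by edgeR). GAS6 averaged 14.5 ± 1.63 CPM in KO and 26.8 ± 1.15 CPM in WT (-0.88 ± 0.13, adjusted p = 4.6e-05 by edgeR). Of the 5 members, 4 were called, 2 higher and 2 lower, where 21.6% of all genes tested were called (10.2% higher and 11.4% lower). The overlapping GAS6-AS1 was also lower (-0.41 ± 0.14, adjusted p = 0.042 by edgeR).

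With the union of exons as gene length, the summed receptor level differed by less than its SD between the genotypes. Per kilobase of exon, MERTK, AXL and TYRO3 together reached 60.6 ± 1.37 CPM in KO and 60.6 ± 0.744 CPM in WT. MERTK made up 56.1% ± 0.139 of that sum in KO, against 28.3% ± 1.35 in WT. The ratio of MERTK to AXL per kilobase was 1.28, 1.27 and 1.27 in the KO libraries, against 0.416, 0.366 and 0.403 in the WT libraries. MERTK was thus the more abundant receptor transcript in every KO library and AXL in every WT library. The ratio of PROS1 to GAS6 per kilobase was 5.86, 4.64 and 5.55 in KO, against 2.25, 2.16 and 1.84 in WT. These sums and ratios were formed after the levels were seen, and no test was made of them or of those given for the treated groups. They also depend on the gene length used. With the longest transcript as length, MERTK averaged 40.4 CPM per kilobase in KO and 20.4 in WT, and AXL 28.9 in KO and 47.3 in WT. PROS1 then averaged 19.5 in KO and 14.1 in WT, and GAS6 5.49 in KO and 10.1 in WT.

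**Figure D2:**
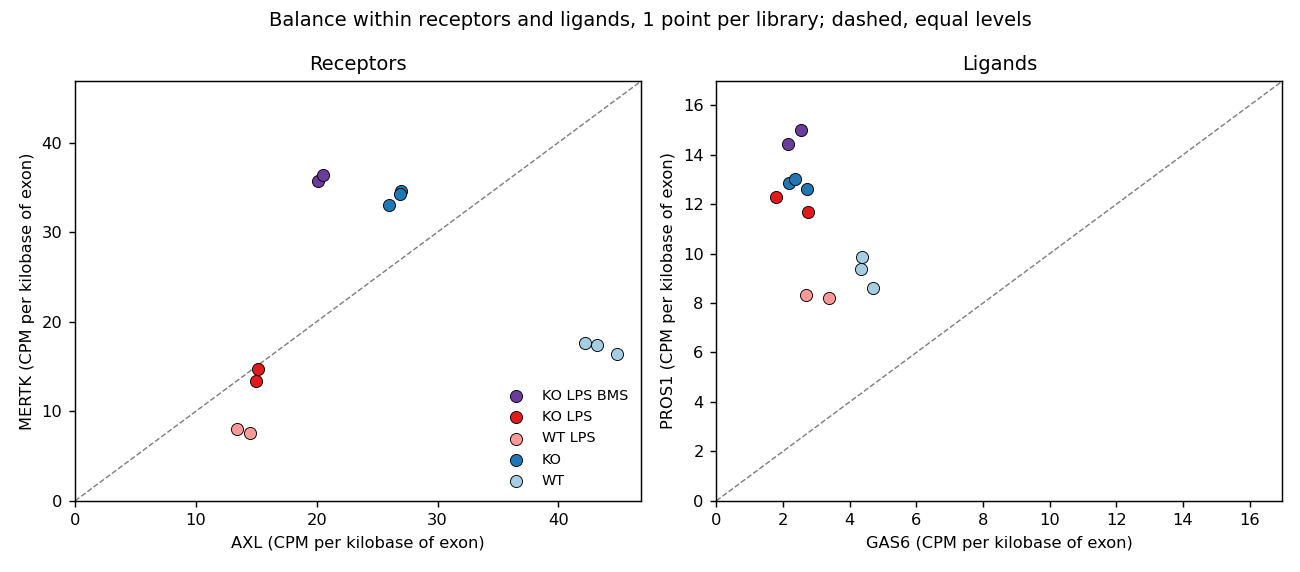
MERTK against AXL (left) and PROS1 against GAS6 (right) in CPM per kilobase of exon, linear axes from 0, 1 point per library coloured by group, with a dashed line of equal levels. The KO LPS BMS and KO libraries lie above the receptor line (MERTK to AXL ratios of 1.27 to 1.77), the KO LPS, WT LPS and WT libraries lie below it (0.366 to 0.976), and PROS1 exceeds GAS6 in all libraries. Lengths are the union of exons, and the side of the line for KO LPS depends on the length used.

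Sums of several marker lists differed between KO and WT cells. Over all genes tested, 10.2% were higher and 11.4% lower in KO. The summed level of 12 monocyte and border macrophage markers was 2457 to 2523 CPM in KO and 1445 to 1496 CPM in WT. Of these markers, 9 were higher and 1 lower. The most abundant were CD163 (516 to 1312 CPM over all libraries) and MRC1 (280 to 1022 CPM), and a sum follows such members most closely. The sum of 10 dendritic cell markers was 157 to 159 CPM in KO and 341 to 362 CPM in WT. Of the 8 tested members 4 were lower, and CLEC4C had 0 counts in all libraries. The highest levels in this list were those of CD1C (23.9 to 145.5 CPM over all libraries) and CLEC10A (62.9 to 133 CPM). SIGLEC6, which marks the dendritic cells that carry AXL, ranged from 13.8 to 28.3 CPM, while CLEC9A stayed at or below 0.788 CPM. Endothelial markers summed to 33.0 to 36.1 CPM in KO and 18.02 to 21.4 CPM in WT, with 3 of 7 tested members higher. Mesenchymal markers summed to 27.0 to 69.2 CPM in KO and 16.7 to 33.1 CPM in WT, with no member called among 7 tested. Platelet markers summed to 37.1 to 39.9 CPM in KO and 28.9 to 33.3 CPM in WT, and PF4 had at most 1 count. Of 15 microglia and macrophage markers tested, 3 were higher and 7 lower in KO. Their sums overlapped, at 8233 to 8720 CPM in KO and 8624 to 8840 CPM in WT. The part of these markers in the changes of the TAM genes was not tested.

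Both genotypes were also compared under LPS, where the question is whether KO and WT cells differ once stimulated. MERTK averaged 66.0 ± 4.67 CPM in KO LPS and 36.5 ± 1.35 CPM in WT LPS (SD, n = 2 each), a log2 fold change of 0.85 ± 0.07 (adjusted p = 1.28e-08 by edgeR). PROS1 averaged 65.3 ± 2.26 CPM in KO LPS and 45.03 ± 0.441 CPM in WT LPS (0.54 ± 0.07, adjusted p = 1.13e-05 by edgeR). AXL was not called, with 77.5 ± 0.430 CPM in KO LPS and 71.9 ± 3.94 CPM in WT LPS, and the 95% interval of its log2 fold change was -0.03 to 0.25. The members called were thus 2 of 5, both higher, where 30.6% of all genes were called (15.6% higher and 15% lower). GAS6 averaged 13.7 ± 4.04 CPM in KO LPS and 18.2 ± 2.88 CPM in WT LPS and missed the threshold (-0.42 ± 0.17, adjusted p = 0.0699 by edgeR). Its call depended on the processing, since it was lower by DESeq2 (-0.46) and without KO LPS replicate 2 (-0.75) or WT LPS replicate 2 (-0.57). TYRO3, at 1 to 16 counts, missed the threshold as well (1.85 ± 0.76, adjusted p = 0.0687 by edgeR) and was called without KO LPS replicate 1 (2.22). Monocyte and border macrophage markers summed to 2906 to 3105 CPM in KO LPS and 2075 to 2219.6 CPM in WT LPS, and endothelial markers to 25.7 to 29.6 CPM in KO LPS and 10.2 to 10.8 CPM in WT LPS, and their part in these differences was not tested.

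LPS lowered both receptors in both genotypes. In WT cells MERTK averaged 36.5 ± 1.35 CPM with LPS and 80.6 ± 2.96 CPM without it, a log2 fold change of -1.14 ± 0.07 (adjusted p = 1.85e-12 by edgeR). AXL averaged 71.9 ± 3.94 CPM in WT LPS and 224 ± 6.89 CPM in WT (-1.64 ± 0.06, adjusted p = 3.87e-16 by edgeR). Of the 5 members, 4 were called, all lower, where 59.7% of all genes were called (28.9% higher and 30.8% lower), so a called gene was common in this comparison. GAS6 was lower by 0.56 on the log2 scale (-0.56 ± 0.14, adjusted p = 0.00252 by edgeR), a call that was lost without WT LPS replicate 2 (-0.41). PROS1 was near the threshold (-0.17 ± 0.07, adjusted p = 0.0434 by edgeR), and its call was lost by DESeq2 (-0.13) and without either WT LPS library (-0.16 without replicate 1 and -0.18 without replicate 2) or WT replicate 1 (-0.12) or 2 (-0.16). GAS6-AS1 was lower with LPS (-1.13 ± 0.18, adjusted p = 1.07e-05 by edgeR).

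In KO cells MERTK averaged 66.0 ± 4.67 CPM with LPS and 159.7 ± 3.92 CPM without it (-1.28 ± 0.06, adjusted p = 1.66e-13 by edgeR). AXL averaged 77.5 ± 0.430 CPM in KO LPS and 137 ± 2.92 CPM in KO (-0.82 ± 0.06, adjusted p = 1.06e-10 by edgeR). These 2 receptors were the members called, both lower, where 44.8% of all genes were called (24.5% higher and 20.3% lower). PROS1 was 65.3 ± 2.26 CPM in KO LPS and 69.9 ± 1.09 CPM in KO and was not called (-0.10 ± 0.07, adjusted p = 0.25 by edgeR). GAS6 was 13.7 ± 4.04 CPM in KO LPS and 14.5 ± 1.63 CPM in KO, with overlapping libraries, and was not called (-0.09 ± 0.15, adjusted p = 0.668 by edgeR). Without KO LPS replicate 2, GAS6 was called lower (-0.42). Without KO replicate 2, TYRO3 was called higher (1.80).

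The interaction of genotype and LPS tested whether the LPS response itself differed between KO and WT cells. AXL was the called member of the 5, where 12% of all genes were called (6.42% above 0 and 5.57% below). Its LPS response was -0.82 in KO and -1.64 in WT, a difference of 0.82 ± 0.08 (adjusted p = 9.15e-07 by edgeR), so that the fall was smaller in KO cells. The MERTK response was -1.28 in KO and -1.14 in WT, a difference of -0.13 ± 0.09 that was not called and whose 95% interval was -0.32 to 0.06. The differences for PROS1 (0.07 ± 0.10), GAS6 (0.47 ± 0.21) and TYRO3 (1.22 ± 1.04) were not called either. GAS6 was called without KO LPS replicate 1 (0.72). The KO and WT libraries entered both this test and the comparison without LPS, in which AXL already differed.

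Under LPS the summed receptor level was lower in both genotypes. Per kilobase it was 29.2 ± 1.04 CPM in KO LPS and 60.6 ± 1.37 CPM in KO, and 21.7 ± 0.458 CPM in WT LPS and 60.6 ± 0.744 CPM in WT. The ratio of MERTK to AXL was 0.976 and 0.890 in KO LPS, against 1.27 to 1.28 in KO. In WT LPS the ratio was 0.522 and 0.594, against 0.366 to 0.416 in WT. The ratio therefore moved down with LPS in KO cells and up in WT cells. With the longest transcript as length, MERTK averaged 16.7 and AXL 16.4 CPM per kilobase in KO LPS. Which of these 2 was higher in KO LPS thus depended on the length used. The ligand sum per kilobase was 14.3 ± 0.259 CPM in KO LPS and 15.2 ± 0.181 CPM in KO, and 11.3 ± 0.398 CPM in WT LPS and 13.7 ± 0.458 CPM in WT. Dendritic cell markers summed to 143 CPM in both KO LPS libraries and 157 to 159 CPM in KO, with 1 member higher and 1 lower of 8 tested and a median of -0.03. They summed to 185 to 204 CPM in WT LPS and 341 to 362 CPM in WT, with 1 higher and 5 lower and a median of -0.58. Over all genes, 44.8% were called with LPS in KO and 59.7% in WT. With LPS the sums and AXL were both lower in each genotype. The sums were higher and AXL was lower in WT LPS than in KO. These 2 groups differ in both genotype and LPS and were not tested against each other. The part of these markers in the AXL result was not tested.

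The comparison of KO LPS BMS with KO LPS asked what BMS265246 did to stimulated knockout cells. MERTK rose to 169 ± 2.14 CPM in KO LPS BMS, against 66.0 ± 4.67 CPM in KO LPS (SD, n = 2 each), a log2 fold change of 1.36 ± 0.07 (adjusted p = 1.07e-12 by edgeR). AXL rose less, to 105 ± 1.36 CPM in KO LPS BMS, against 77.5 ± 0.430 CPM in KO LPS (0.43 ± 0.06, adjusted p = 9.7e-06 by edgeR). PROS1 rose to 80.1 ± 2.05 CPM in KO LPS BMS, against 65.3 ± 2.26 CPM in KO LPS (0.29 ± 0.07, adjusted p = 0.00201 by edgeR). These 3 members were called, all higher, where 47.8% of all genes were called (22.3% higher and 25.5% lower). GAS6 was 14.1 ± 1.60 CPM in KO LPS BMS and 13.7 ± 4.04 CPM in KO LPS and was not called (0.04 ± 0.17, adjusted p = 0.877 by edgeR). This comparison shares its KO LPS libraries with that of KO LPS and KO. Whether WT cells would respond in the same way was not measured.

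Against KO cells without LPS, MERTK in KO LPS BMS was not called different, with a log2 fold change of 0.08 ± 0.06 (adjusted p = 0.23 by edgeR) and a 95% interval of -0.04 to 0.21. When libraries were scaled by their totals alone, the median of all genes in this comparison was -0.39 instead of -0.06, and MERTK was lower (-0.25). AXL was lower in KO LPS BMS than in KO (-0.39 ± 0.06, adjusted p = 4.76e-06 by edgeR), and PROS1 was higher (0.20 ± 0.07, adjusted p = 0.0124 by edgeR). The PROS1 call was lost without KO LPS BMS replicate 1 (0.17), and the direction turned with library totals alone (-0.14). GAS6 was not called (-0.05 ± 0.16), except with library totals alone (-0.39). The 2 members called, 1 higher and 1 lower, compare with 62.7% of all genes called (30.3% higher and 32.4% lower).

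Against WT LPS cells, which differ from KO LPS BMS in both genotype and compound, MERTK was higher by 2.21 ± 0.07 (adjusted p = 5.05e-16 by edgeR), a 4.63-fold difference. PROS1 was higher by 0.83 ± 0.07 (adjusted p = 4.28e-09 by edgeR) and AXL by 0.54 ± 0.06 (adjusted p = 2.99e-07 by edgeR). These 3 members were called, where 56.4% of all genes were called (28.1% higher and 28.3% lower). GAS6 missed the threshold (-0.38 ± 0.17, adjusted p = 0.065 by edgeR), and it was called without WT LPS replicate 2 (-0.54). TYRO3 was called without WT LPS replicate 2 (3.28), which left a single WT LPS library with 1 count.

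With BMS265246 the receptor sum per kilobase was 56.4 ± 0.691 CPM in KO LPS BMS, against 29.2 ± 1.04 CPM in KO LPS. MERTK made up 63.8% of that sum in KO LPS BMS and 48.1% in KO LPS. The ratio of MERTK to AXL was 1.77 in both KO LPS BMS libraries, above all other libraries. The ratio of PROS1 to GAS6 was 5.92 and 6.71 in KO LPS BMS and 6.81 and 4.24 in KO LPS, so that these groups overlapped. The summed level of monocyte and border macrophage markers was 2691 to 2750 CPM in KO LPS BMS and 2906 to 3105 CPM in KO LPS, with 4 members higher and 6 lower of 12. Of 15 microglia and macrophage markers tested, 9 were higher and 5 lower in KO LPS BMS, where 22.3% of all genes were higher and 25.5% lower, and their sums overlapped. Dendritic cell markers summed to 159.7 to 166 CPM in KO LPS BMS and to 143 CPM in both KO LPS libraries. The part of these markers in the results for the TAM genes was not tested.

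**Figure D3:**
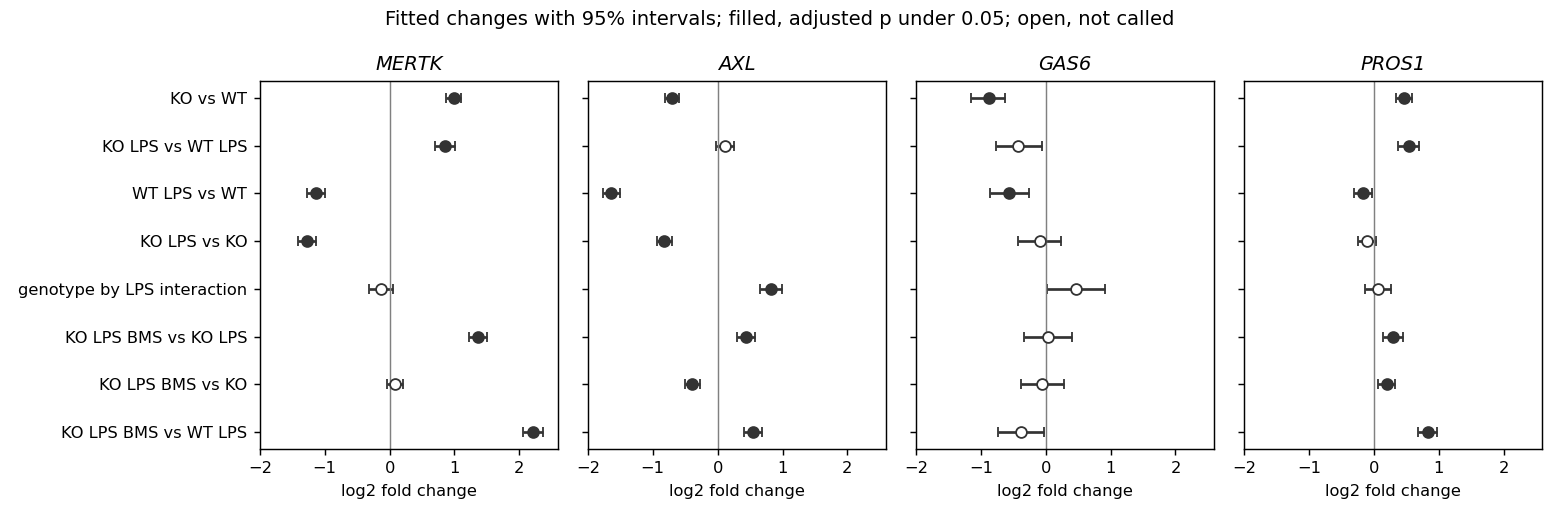
Fitted log2 fold changes of MERTK, AXL, GAS6 and PROS1 with 95% intervals in 8 comparisons, the first-named group over the second, and for the interaction the LPS response in KO minus that in WT; filled points have an adjusted p under 0.05 and open points do not. MERTK is higher in KO than in WT without LPS (0.99) and with it (0.85), whereas AXL is lower in KO without LPS (-0.71) and not called with it (0.11).

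The enzymes that activate the ligands and cut the receptors were followed as lists, and each count of called genes is to be read against the share of all genes called in that comparison. With LPS these shares were 24.5% higher and 20.3% lower in KO, and 28.9% higher and 30.8% lower in WT, and the medians over all genes were -0.004 in KO and -0.07 in WT. For ligand activation, GGCX performs the carboxylation, VKORC1 and VKORC1L1 recycle vitamin K, and FURIN removes propeptides. None of the 3 tested genes was called in KO against WT, and GGCX stayed between 43.3 and 49.3 CPM in the group means. VKORC1L1 was higher in WT LPS than in WT (0.26 ± 0.08) and lower in KO LPS than in WT LPS (-0.32 ± 0.09). FURIN was not called in any of the 8 comparisons, and its group means ran from 343 to 441 CPM. VKORC1 was not tested, with group means of 0.335 to 0.469 CPM, and 1272 of its 2191 exon bases are shared with the annotated gene AC135050.7.

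ADAM17 and ADAM10 release the ectodomains of MERTK and AXL, RHBDF1, RHBDF2 and FRMD8 help ADAM17 to mature and stay at the surface, and TIMP3 inhibits ADAM17. In KO against WT, 3 of the 6 genes were higher and none lower, where 10.2% of all genes were higher and 11.4% lower. The median of the list was 0.29, against -0.02 over all genes. TIMP3, the inhibitor, averaged 276 ± 10.9 CPM in KO and 135 ± 3.56 CPM in WT (1.04 ± 0.05, adjusted p = 5.84e-13 by edgeR). With LPS, ADAM17 averaged 121 ± 4.72 CPM in KO LPS and 55.2 ± 2.06 CPM in KO (1.13 ± 0.07), and 124 ± 10.5 CPM in WT LPS and 57.1 ± 2.56 CPM in WT (1.12 ± 0.06). The list had 4 genes higher and none lower in KO LPS against KO, and 4 higher and 1 lower (FRMD8, -0.41 ± 0.12) in WT LPS against WT, with medians of 0.58 and 0.20, where 44.8% and 59.7% of all genes were called. With BMS265246, 3 genes were higher and 2 lower than in KO LPS, where 22.3% of all genes were higher and 25.5% lower. TIMP3 averaged 595 ± 21.1 CPM in KO LPS BMS and 297 ± 6.87 CPM in KO LPS (1.00 ± 0.06). ADAM10 averaged 348 ± 19.6 CPM in KO LPS BMS and 516 ± 42.3 CPM in KO LPS (-0.57 ± 0.07). ADAM17 averaged 219 ± 0.904 CPM in KO LPS BMS and 121 ± 4.72 CPM in KO LPS. No gene of this list was called in the interaction, where 12% of all genes were called.

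Galectin-3, encoded by LGALS3, has been reported as a further ligand of MERTK, as have TUB and TULP1, which were at or near 0 counts here. LGALS3 averaged 63.4 ± 3.62 CPM in KO and 51.7 ± 2.92 CPM in WT (0.30 ± 0.07). With LPS it averaged 103 ± 11.95 CPM in KO LPS and 63.4 ± 3.62 CPM in KO (0.70 ± 0.08), and 112 ± 9.12 CPM in WT LPS and 51.7 ± 2.92 CPM in WT (1.11 ± 0.08). It therefore rose with LPS where MERTK fell, and the rise was smaller in KO cells (interaction -0.41 ± 0.11, adjusted p = 0.0193 by edgeR). KO LPS BMS and KO LPS were not called different for LGALS3.

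Other receptors and bridges for phosphatidylserine, of which 16 of 18 were tested, went both ways. MFGE8, which bridges the lipid to integrins, averaged 35.5 ± 2.21 CPM in KO and 84.1 ± 8.43 CPM in WT (-1.25 ± 0.08, adjusted p = 4.16e-11 by edgeR). THBS1, which bridges dying cells to CD36, averaged 319.8 ± 2.46 CPM in KO and 159.9 ± 8.21 CPM in WT (1.00 ± 0.05, adjusted p = 2.7e-13 by edgeR). In KO against WT the list had 4 genes higher and 4 lower, where 10.2% of all genes were higher and 11.4% lower. Its median was 0.08, against -0.02 over all genes. In KO LPS against KO it had 5 higher and 7 lower (median 0.00, 44.8% of all genes called). In WT LPS against WT it had 5 higher and 8 lower (median -0.68, 59.7% of all genes called). THBS1 rose with LPS (1.85 ± 0.05 in KO, 3.37 ± 0.05 in WT), and CD300A fell (-1.20 ± 0.06 in KO, -1.67 ± 0.06 in WT). In KO LPS BMS against KO LPS the list had 7 higher and 3 lower, where 22.3% of all genes were higher and 25.5% lower. Its median was 0.36, against -0.04 over all genes. CD300A, a receptor of phosphatidylserine that inhibits signalling, averaged 148 ± 2.76 CPM in KO LPS BMS and 85.2 ± 0.0630 CPM in KO LPS (0.79 ± 0.07), while THBS1 averaged 423 ± 12.4 CPM in KO LPS BMS and 1149.9 ± 9.63 CPM in KO LPS (-1.44 ± 0.06). LRP1, an engulfment receptor, averaged 1018 ± 93.1 CPM in KO LPS and 491 ± 43.6 CPM in WT LPS (1.05 ± 0.09, adjusted p = 1.14e-06 by edgeR).

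Of 11 genes that expose or flip phosphatidylserine, 10 were tested. In KO against WT, 2 were higher and none lower, where 10.2% of all genes were higher and 11.4% lower. TMEM30A, a subunit of lipid flippases, was higher by 0.23 ± 0.05. With LPS, 6 were higher and 2 lower in KO (median 0.43, 44.8% of all genes called) and 7 higher and 3 lower in WT (median 0.49, 59.7% of all genes called). The scramblase-family gene PLSCR1, which interferon induces, averaged 194 ± 1.58 CPM in KO LPS and 312 ± 6.06 CPM in WT LPS (-0.68 ± 0.06, adjusted p = 2.28e-08 by edgeR). In KO LPS BMS against KO LPS, 1 was higher and 6 were lower, where 22.3% of all genes were higher and 25.5% lower. The higher one was the flippase gene ATP8B4 (0.81 ± 0.07).

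Of 14 genes of the engulfment machinery downstream of these receptors, 13 were tested. In KO against WT, 4 were higher and 5 lower, where 10.2% of all genes were higher and 11.4% lower. PTK2, which encodes focal adhesion kinase, averaged 31.4 ± 1.11 CPM in KO and 13.97 ± 1.41 CPM in WT (1.17 ± 0.09). DOCK2, a RAC activator, was lower by 0.38 on the log2 scale (-0.38 ± 0.04). With LPS, 8 were higher and 2 lower in KO (median 0.46, 44.8% of all genes called) and 8 higher and 3 lower in WT (median 0.40, 59.7% of all genes called). VAV1, an exchange factor that acts downstream of MERTK, rose (1.10 ± 0.06 in KO, 1.19 ± 0.06 in WT), and ELMO1, the partner of DOCK proteins, fell (-0.91 ± 0.07 in KO, -1.45 ± 0.07 in WT). The fall of ELMO1 was smaller in KO (interaction 0.54 ± 0.10, adjusted p = 0.000769 by edgeR). In KO LPS BMS against KO LPS, 8 were higher and 2 lower, where 22.3% of all genes were higher and 25.5% lower. The median of the list was 0.20, against -0.04 over all genes. The adaptor gene CRK averaged 238 ± 0.934 CPM in KO LPS BMS and 115 ± 1.46 CPM in KO LPS (1.05 ± 0.06).

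All 12 genes of signalling from TAM receptors were tested, of which 1 was higher and 4 were lower in KO against WT, with a median of 0.03 against -0.02 over all genes, of which 10.2% were higher and 11.4% lower. NFKBIA, an inhibitor and target of NF-kB, was among the lower ones (-0.41 ± 0.05, adjusted p = 6.38e-06 by edgeR). NFKBIA rose with LPS by 2.54 ± 0.06 in KO and 2.08 ± 0.06 in WT. In each genotype it was 1 of 7 higher genes of the list, with 3 lower. The medians were 0.35 in KO and 0.46 in WT, where 44.8% and 59.7% of all genes were called. In KO LPS BMS against KO LPS, 2 genes were higher and 3 lower, where 22.3% of all genes were higher and 25.5% lower. NFKBIA was among the lower genes of the list (-0.27 ± 0.06).

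All 17 genes reported to act on the transcription of MERTK or AXL were tested, and they did not move as a block. In KO against WT, 5 were higher and 1 lower, where 10.2% of all genes were higher and 11.4% lower. The median of the list was 0.24, against -0.02 over all genes. KLF4, a macrophage transcription factor, averaged 15.0 ± 2.28 CPM in KO and 5.29 ± 1.14 CPM in WT (1.51 ± 0.15, adjusted p = 1.47e-07 by edgeR), and SP1, which can bind GC boxes, was lower by 0.20 on the log2 scale (-0.20 ± 0.06). RXRA, the partner of liver X receptors, averaged 293 ± 37.4 CPM in KO LPS and 120.3 ± 5.25 CPM in WT LPS (1.28 ± 0.09, adjusted p = 5.73e-09 by edgeR). NR1H3, which encodes the liver X receptor that can induce MERTK, averaged 123 ± 2.11 CPM in KO LPS and 40.1 ± 1.13 CPM in KO (1.61 ± 0.06), and 91.3 ± 1.36 CPM in WT LPS and 43.2 ± 2.72 CPM in WT (1.08 ± 0.06). In KO LPS against WT LPS it was higher (0.43 ± 0.07, adjusted p = 6.27e-05 by edgeR). In KO LPS BMS it was 77.2 ± 1.87 CPM, against 123 ± 2.11 CPM in KO LPS (-0.67 ± 0.07). Whether NR1H3 bears on MERTK here was not tested. PPARD, a lipid-sensing receptor, averaged 374 ± 0.278 CPM in KO LPS BMS and 236 ± 13.7 CPM in KO LPS (0.66 ± 0.06).

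All 10 target genes of liver X receptors, NR1H3 itself among them, were tested. In KO against WT, 2 were higher and 1 lower, where 10.2% of all genes were higher and 11.4% lower. The median of the list was -0.03, against -0.02 over all genes. With LPS the list had 3 higher and 3 lower in KO (median -0.09) and 3 higher and 5 lower in WT (median -0.30). Over all genes, 44.8% were called in KO and 59.7% in WT. ABCA1, a cholesterol exporter, averaged 272 ± 11.2 CPM in WT LPS and 122 ± 5.11 CPM in WT (1.15 ± 0.06). In KO cells ABCA1 averaged 260 ± 2.50 CPM with LPS and 135 ± 3.32 CPM without it. ABCG1, a second exporter, averaged 58.2 ± 4.35 CPM in KO LPS and 104 ± 3.45 CPM in KO (-0.84 ± 0.07). In WT cells ABCG1 averaged 48.4 ± 0.480 CPM with LPS and 107 ± 3.20 CPM without it. In KO LPS BMS against KO LPS, 2 were higher and 3 lower, where 22.3% of all genes were higher and 25.5% lower. The median of the list was 0.03, against -0.04 over all genes. SCD, a fatty acid desaturase, averaged 2268 ± 12.8 CPM in KO LPS BMS and 956 ± 54.3 CPM in KO LPS (1.25 ± 0.05).

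The genes most alike MERTK and AXL were sought among 10579 genes with a symbol and a mean of at least 5 CPM, by the root mean square difference of their log2 group means, each centred over the 5 groups. For MERTK, whose own group means spanned 2.20 on the log2 scale, these were SYNGR1 (difference 0.194), SIGLEC11 (0.205) and the scavenger receptor gene COLEC12 (0.208). COLEC12 averaged 137 CPM in KO LPS BMS, 68.3 CPM in KO LPS, 30.1 CPM in WT LPS, 165 CPM in KO and 95.5 CPM in WT. For AXL, which spanned 1.63, they were KLHDC8B (0.0547), PCNX2 (0.0829) and ZNF503 (0.101). For GAS6 they were GLO1 (0.0692), AOC1 (0.0742) and FCGR2B (0.0781), and for PROS1 they were AC012368.1 (0.0287), FABP3 (0.0453) and SIGLEC17P (0.050). The groups are 5 points from the same 12 libraries, so likeness of this kind is a description with no test.

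**Figure D4:**
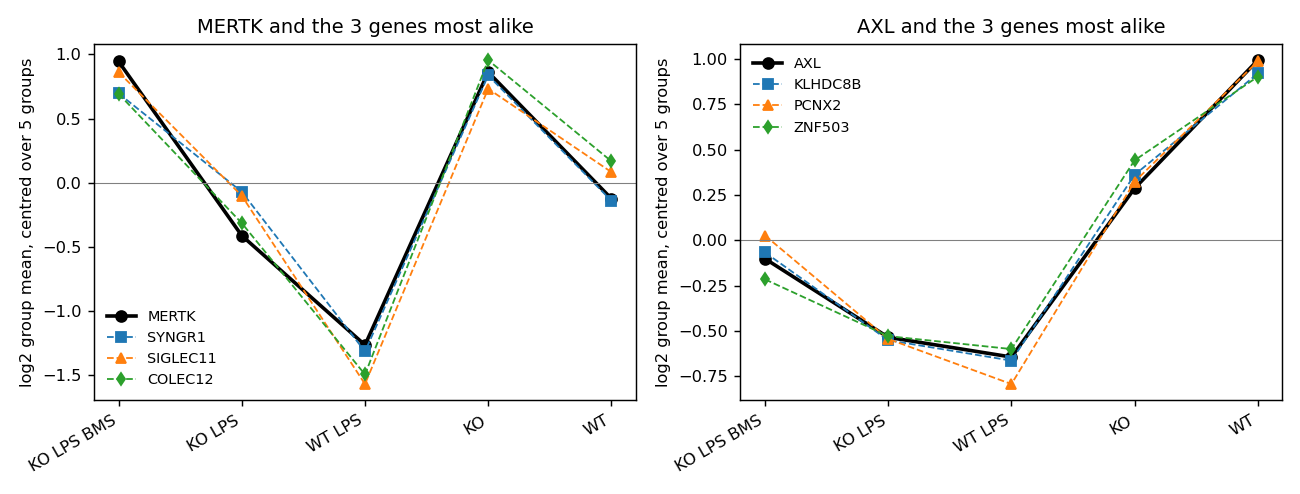
Log2 group means of MERTK (left) and AXL (right) and of the 3 genes most alike each, centred over the 5 groups, with groups on the horizontal axis from KO LPS BMS to WT; lines join the points of 1 gene and imply no order. MERTK and its 3 nearest genes are lowest in WT LPS and highest in KO LPS BMS or KO, and AXL and its 3 nearest genes are highest in WT.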

How the data were processed

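RNA of 12 iMGL cultures was sequenced, 1 library each, and titles gave the group and replicate of each. Per the labels, TRIzol was used for extraction and a NEBNext Ultra kit for the mRNA libraries. The authors deposited 1 table of raw counts for all libraries. The submitters' processing notes name CASAVA 1.7, Cufflinks and GRCh38. Not given in the sources used here are the aligner, counter, strand setting and annotation. Symbols came from a table of gene names for 41445 IDs and from GENCODE release 29 for 15943 more, and 604 IDs had none. Of the IDs, 24552 had no count in any library.

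All 5 TAM genes passed the filter on low counts (filterByExpr by group). A robust quasi-likelihood model with TMM scaling and a mean for each group was fitted to the 12 libraries together (edgeR 4.0.16, R 4.3.3), and 8 comparisons were tested 2-sided, with a common biological coefficient of variation of 0.0635. The SE of a change is its size divided by the square root of its F value. Groups of 2 libraries borrow their spread from the whole fit. The steps were also run on counts simulated with the spread fitted to these data, with far fewer genes changed than were called here. The outcome of that run is not reported here. Replicates correlated at 0.989 to 0.993 (Pearson, log2 CPM across genes) and their counts differed beyond sampling noise (chi-square per degree of freedom of 2.02 to 11.1). CPM per kilobase used the union of exons in GENCODE release 29. From each list the text names the called gene with the lowest adjusted p in each direction of the comparisons described, and all genes of lists under 5, except for items that are not reported here. The genes SIGLEC6, CLEC9A, PF4, CSF1R, P2RY12, CD68, CD163, MRC1, CD1C and CLEC10A were named from the marker lists after their values were seen. Values of ADAM17 with BMS265246, of ABCA1 in KO and of ABCG1 in WT were also added after they were seen. Alternatives were DESeq2 1.42.0, RLE scaling, library totals alone, no filter, fits of the compared groups only, a replicate block and leaving out each library. For levels per kilobase, the longest transcript was also used as gene length. The members, lists and tests were chosen with earlier results of these data known.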

Additional observations from a re-analysis of the deposited data

Results flagged for a closer look

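By the interaction test of edgeR (adjusted p under 0.05 over all genes tested), the LPS response differed between KO and WT cells for the 12 genes given here, which are AXL, GAS6-AS1, MEF2C and, from each list, the called gene with the lowest adjusted p in each direction. Other genes of the lists were called too, such as 9 in all of the 16 tested receptors and bridges for phosphatidylserine and 5 in all of the 17 regulators. Over all genes tested, 12% were called in the interaction (6.42% above 0 and 5.57% below). Values are the LPS response in KO minus that in WT on the log2 scale. The difference was above 0 for AXL (0.82), MFGE8 (0.82), GAS6-AS1 (0.81), ELMO1 (0.54), NR1H3 (0.53), NFKBIA (0.47) and MEF2C (0.34). It was below 0 for THBS1 (-1.53), KLF4 (-1.40), PLSCR1 (-0.65), LGALS3 (-0.41) and PTPN11 (-0.34). The response of GAS6-AS1 was -0.32 ± 0.18 in KO and -1.13 ± 0.18 in WT, whereas GAS6, which shares exon bases with it, had a difference of 0.47 ± 0.21 that was not called (adjusted p = 0.166 by edgeR). KLF4 stood at 16.5 ± 2.99 CPM in KO LPS and 15.0 ± 2.28 CPM in KO, and at 15.3 ± 1.02 CPM in WT LPS and 5.29 ± 1.14 CPM in WT.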

How the results depend on the processing

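MERTK and AXL kept their direction and their side of the threshold in all 8 comparisons under every alternative run, except MERTK in KO LPS BMS against KO, which turned to -0.25 with library totals alone. Library totals alone shifted the median of all genes to -0.358 in WT LPS against WT, -0.257 in KO LPS against KO, -0.394 in KO LPS BMS against KO and -0.119 in KO LPS BMS against KO LPS. The share of called genes that were higher then moved to 26.7%, 25.5%, 26.1% and 37.1% in these comparisons (48.4%, 54.7%, 48.4% and 46.6% with TMM), and to 65.3% in the interaction (53.5% with TMM, 43.5% with RLE, 42.4% with only the groups compared). In that scaling PROS1 was -0.35 in KO LPS against KO and -0.14 in KO LPS BMS against KO. GAS6 was -0.04 in KO LPS BMS against KO LPS, -0.39 in KO LPS BMS against KO and -0.42 in KO LPS BMS against WT LPS. PROS1 in WT LPS against WT lost its call with DESeq2 (-0.13), RLE (-0.13), no filter (-0.18) and only the groups compared (-0.14). GAS6 gained a call in KO LPS against WT LPS with DESeq2 (-0.46), RLE (-0.46) and no filter (-0.45), and in KO LPS BMS against WT LPS with RLE (-0.38), no filter (-0.37) and only the groups compared (-0.38). The cause of these moves was not tested.

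Leaving out 1 library at a time gave these ranges where a call or direction changed. TYRO3, whose counts were 1 to 16, ran from -0.07 to 1.07 in KO against WT, from -1.77 to 0.60 in WT LPS against WT, from 0.60 to 1.80 in KO LPS against KO, from 1.13 to 3.50 in KO LPS against WT LPS, from -0.69 to 0.30 in KO LPS BMS against KO LPS, and from 0.91 to 3.28 in KO LPS BMS against WT LPS. GAS6 ran from -0.73 to -0.41 in WT LPS against WT, from -0.42 to 0.15 in KO LPS against KO, from -0.75 to -0.16 in KO LPS against WT LPS, from 0.14 to 0.72 in the interaction, from -0.20 to 0.37 in KO LPS BMS against KO LPS, from -0.17 to 0.07 in KO LPS BMS against KO, and from -0.54 to -0.21 in KO LPS BMS against WT LPS. PROS1 ran from -0.22 to -0.12 in WT LPS against WT and from 0.17 to 0.23 in KO LPS BMS against KO. The number of genes called ran from 3005 (without KO LPS replicate 2) to 5549 in KO LPS against WT LPS (4900 with all libraries, 2660 with only these groups fitted), and from 1162 (without KO LPS replicate 2) to 3079 (without KO LPS replicate 1) in the interaction (1920 with all). A lone remaining library is assumed to vary like the other groups.

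Replicate numbers were not shown to pair the libraries, since the deviations of same-numbered libraries correlated at 0.0653, 0.0410 and 0.00666 in KO against WT, at 0.0858 and 0.0972 in KO LPS against KO, at -0.0266 and 0.0137 in WT LPS against WT, at -0.0539 and -0.0802 in KO LPS BMS against KO, at 0.0939 in KO LPS BMS against WT LPS, at -0.143 in KO LPS against WT LPS and at -0.128 in KO LPS BMS against KO LPS. The replicate block changed no call of a member and gave 3091, 8973, 6562, 4454, 1543, 7379, 9551 and 8781 called genes in KO against WT, WT LPS against WT, KO LPS against KO, KO LPS against WT LPS, the interaction, and KO LPS BMS against KO LPS, KO and WT LPS. With the KO LPS numbers crossed, chosen after these last values were seen, it gave 4651 genes in KO LPS against WT LPS and 7514 in KO LPS BMS against KO LPS. TYRO3 was limited by its counts of 1 to 16 per library.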
